A study of Sus scrofa with 32 samples.

Results

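MYOD1, MYF5 and MYF6 are the 3 myogenic regulatory factors followed here by their symbols, and they are 3 of the 17930 genes with reads in at least 1 of 32 pig muscle libraries. Each of the 3 was listed in 32 of 32 libraries. The libraries were made from the loin muscle longissimus dorsi of wild type pigs that were 6 months old, with 8 libraries in each of 4 breed groups. The groups were Landrace (L), a lean commercial breed, Dapulian (DPL), an indigenous Chinese breed, their cross (LDPL), and Duroc x Landrace x Dapulian pigs (DLDPL). All 32 pigs were kept on like feed in like surroundings per the labels, and the stated question of the series is how muscle transcription varies between breeds. The remaining member of the family, MYOG, was not matched by symbol and is not analysed here.

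The myogenic regulatory factors are basic helix-loop-helix transcription factors. They pair with E-proteins, bind E-box sequences and switch on muscle genes, and in mouse skin fibroblasts forced MYOD1 alone is enough to start the muscle programme. MYF5 and MYOD1 act early, in determining myoblasts, and in adult muscle they mark satellite cells, the resident stem cells, as these rest or become active. MYF6, also called MRF4, is the family member that mature muscle fibres express most. In the RefSeq pig annotation MYF5 and MYF6 are neighbours with 0 annotated genes between them, and MYOD1 is on another chromosome.

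In loin muscle MYF6 was the abundant member in each of the 4 groups. Levels between genes are given as RPKM, the deposited read counts scaled for listed gene length and library size. The median over 32 libraries was 168 RPKM for MYF6 (ENSSSCG00000026533), above the medians of 98.3% of listed genes. It was 7.77 RPKM for MYOD1 (ENSSSCG00000013375), above 77.9% of genes, and 1.25 RPKM for MYF5 (ENSSSCG00000000937), above 49.3%. The order MYF6, MYOD1, MYF5 held for the group medians of all 4 groups. The evidence behind the 3 values differed in depth. MYF6, with a listed length of 1334 bases, had 2014 to 21858 reads per library and reads over 95.9% to 99.6% of its length. MYOD1, with 2025 bases, had 72 to 1152 reads. MYF5, with 951 bases, had 5 to 141 reads and a median of 30, and its lowest library, LDPL replicate 5, had 5 reads with a 95% exact Poisson interval of 1.62 to 11.7. That interval covers counting error only.

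**Figure D1:**
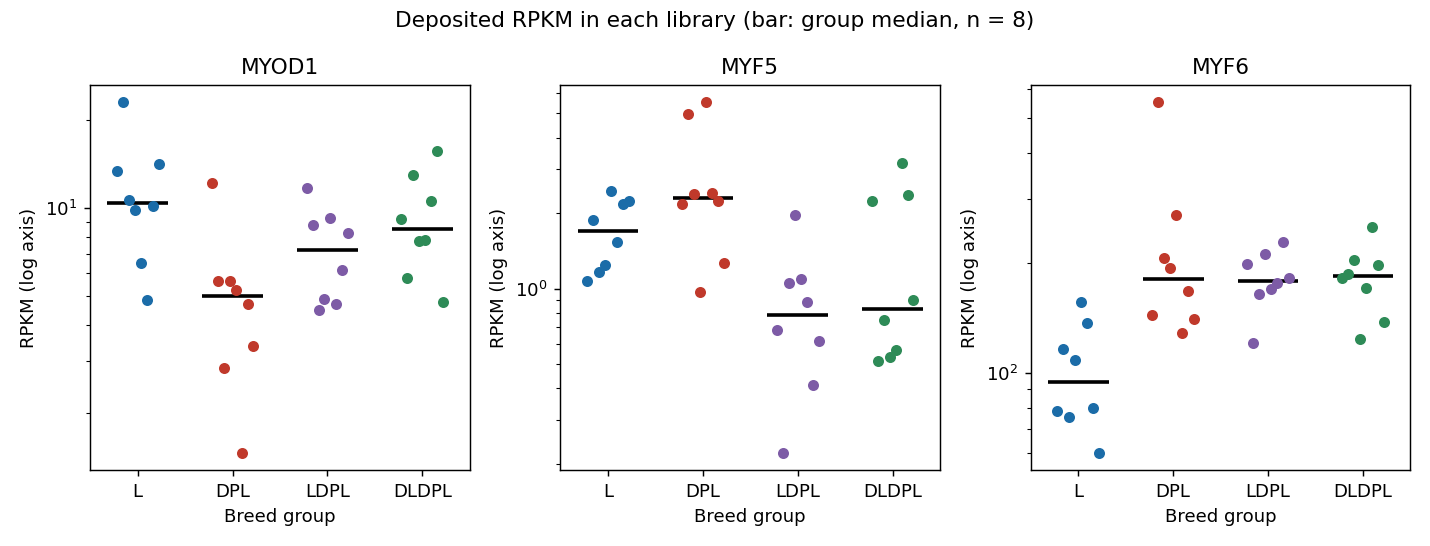
RPKM of MYOD1, MYF5 and MYF6 in each of 32 libraries by breed group, on log axes, with 1 point per library and a bar at the group median. In MYF6 the 8 DPL, 8 LDPL and 8 DLDPL libraries lie above the L median of 94.3 RPKM, and in MYF5 the 8 LDPL libraries lie below the DPL median of 2.30 RPKM.

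Depth was 21.7 to 29.7 M reads per library, and 12821 genes with enough reads were tested. A gene is called here at an adjusted p under 0.05 by the quasi-likelihood test of edgeR on the counts, with Benjamini-Hochberg adjustment over all 12821 genes, and every adjusted p below comes from this test unless another tool is named. Fold changes are on the log2 scale with their standard error (SE). The share of reads on genes of the mitochondrial genome was 31.3 ± 5.59% (SD, n = 8) for DPL, against 20.8 ± 2.58% for L, 22.9 ± 4.37% for LDPL and 22.7 ± 4.86% for DLDPL. L replicate 2 stood apart with a TMM scaling factor of 1.44, against 0.757 to 1.26 in the other libraries. The L libraries carry a number series of their own, so where L is compared, separate handling and breed cannot be told apart. The 3 comparisons with L also share the same 8 L libraries. Of 10 skeletal muscle fibre markers 5 were matched, and their summed level had a median of 103650 CPM (counts scaled by TMM to a fixed library size) for L (42517 to 117712), 63076 for DPL (43043 to 94088), 74284 for LDPL (67167 to 96513) and 74041 for DLDPL (48815 to 93744). ACTA1, the actin of muscle fibres, was lower in DPL than in L (log2 difference -0.81 ± 0.23 SE, adjusted p = 0.00534), and DES, the intermediate filament protein desmin, was higher (0.47 ± 0.14, adjusted p = 0.0102). In LDPL and in DLDPL against L 0 of the 5 were called, and 1 was lower in each without L replicate 2. Of all tested genes 38%, 29.6% and 21.9% were called in DPL, LDPL and DLDPL against L. The median log2 difference of the 5 markers was 6.05e-06, -0.05 and 0.05 in the same order. Their summed level weighs the most abundant markers most. The part of these markers in the results below was not tested.

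MYF6 was higher in each group with Dapulian ancestry than in Landrace. In L it ranged from 60.3 RPKM (replicate 10) to 156 (replicate 7), with a median of 94.3. In DPL it ranged from 128 (replicate 23) to 551 (replicate 11), with a median of 181. In LDPL the lowest, median and highest values were 121, 179 and 228 RPKM. In DLDPL they were 124, 184 and 251 RPKM. Every pair of groups overlapped, but 6 of 8 L libraries lay below the lowest library of each other group, and 5 DPL, 7 LDPL and 6 DLDPL libraries lay above the highest L library. The medians of DPL, LDPL and DLDPL differed by far less than the range within any of the 3.

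By the edgeR test, MYF6 was 2.42-fold higher in DPL than in L (log2 difference 1.27 ± 0.22 SE, adjusted p = 2.94e-05). It was 1.86-fold higher in LDPL (0.90 ± 0.22, adjusted p = 0.0022) and 1.80-fold higher in DLDPL (0.85 ± 0.22, adjusted p = 0.00497). In these 3 comparisons 38%, 29.6% and 21.9% of all tested genes were called in either direction, 19.1%, 14.9% and 11.6% were called higher, and 18.9%, 14.7% and 10.3% lower, so a call by itself is common here. In size, 7.32% of tested genes had a larger absolute log2 difference between DPL and L. Between the groups with Dapulian ancestry MYF6 was not called. The log2 difference of LDPL from DPL was -0.38 (95% interval -0.82 to 0.07, adjusted p = 0.378), that of DLDPL from DPL was -0.43 (-0.87 to 0.02, adjusted p = 0.275) and that of DLDPL from LDPL was -0.05 (-0.49 to 0.39, adjusted p = 0.986). Without DPL replicate 11, the library at 551 RPKM, the difference of DPL from L was 0.99 (adjusted p = 7.93e-05) and that of LDPL from DPL was -0.09 (adjusted p = 0.853). The data are from whole muscle, so fewer cells of a type and less RNA per cell cannot be told apart, for this gene or those that follow.

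Immediate early genes, which respond to stimulation or stress within minutes, moved between the same groups. Of 16 listed, 11 were matched and tested, and 11 were higher in DPL than in L, 10 in LDPL and 11 in DLDPL, with median log2 differences of 3.21, 2.43 and 2.47 against -0.02, -0.03 and -0.02 over all tested genes. Of all tested genes 19.1%, 14.9% and 11.6% were called higher in these comparisons. The summed level of the 11 genes was 35.2 to 192 CPM for L, 860 to 3353 for DPL, 574 to 1668 for LDPL and 134 to 2083 for DLDPL. FOS, a subunit of the AP-1 transcription factor, was at 23.9 ± 17.7 RPKM in L and 386 ± 141 in DPL (SD, n = 8). The part of the immediate early genes in the MYF6 difference was not tested. With the mitochondrially encoded genes removed before scaling, the MYF6 log2 difference of DPL from L was 1.28 (adjusted p = 2.87e-05). The part of the higher mitochondrial share of DPL in this difference was not tested.

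MYOD1 was lower in Dapulian than in Landrace, and the medians of the crosses lay between theirs. In L it ranged from 4.85 RPKM (replicate 8) to 23.0 (replicate 2), with a median of 10.4. In DPL it ranged from 1.46 (replicate 23) to 12.2 (replicate 7), with a median of 4.99, and the second highest DPL library was at 5.65. The lowest, median and highest values were 4.49, 7.20 and 11.7 RPKM in LDPL and 4.76, 8.48 and 15.7 RPKM in DLDPL. Of 8 DPL libraries 7 lay below the L median and 4 below the lowest L library, while replicate 7 lay above the L median. All pairs of groups overlapped.

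The log2 difference of DPL from L was -0.99 ± 0.29 (SE, 1.98-fold lower, adjusted p = 0.00643), where 18.9% of all tested genes were called lower. It was -0.90 without L replicate 2 (adjusted p = 0.0147) and -1.30 without DPL replicate 7 (adjusted p = 0.000253). No other pair was called. The log2 difference was -0.56 (95% interval -1.13 to 0.02, adjusted p = 0.136) for LDPL against L and -0.26 (-0.84 to 0.31, adjusted p = 0.539) for DLDPL against L. Against DPL it was 0.43 (-0.15 to 1.01, adjusted p = 0.446) in LDPL and 0.73 (0.15 to 1.30, adjusted p = 0.140) in DLDPL, and between the crosses it was 0.29 (-0.28 to 0.87, adjusted p = 0.877). Without DPL replicate 7 the difference of DLDPL from DPL passed the threshold at 1.04 (adjusted p = 0.0211). LDPL differed from the midpoint of L and DPL by -0.06 (-0.56 to 0.44, adjusted p = 0.916).

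MYF5 was lower in the Landrace x Dapulian cross than in Dapulian. In DPL the lowest, median and highest libraries were at 0.964 (replicate 19), 2.30 and 5.52 RPKM (replicate 21), with a second high library at 4.99 (replicate 11). In LDPL they were at 0.221 (replicate 5), 0.781 and 1.96 RPKM (replicate 9), and the second highest was at 1.09. In L the values ran from 1.07 to 2.46 RPKM with a median of 1.70. The 8 LDPL libraries lay below the DPL median, and 6 of 8 DPL libraries lay above the highest LDPL library. DLDPL had a median of 0.827 RPKM and fell into a low and a high set: 5 libraries were at 0.516 to 0.903 RPKM, and replicates 6, 29 and 28 were at 2.23, 2.37 and 3.15.

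The log2 difference of LDPL from DPL was -1.75 ± 0.39 (SE, 3.37-fold lower, adjusted p = 0.0121). Here 2.85% of all tested genes were called, 1.29% higher and 1.56% lower in LDPL, and 0.351% had a larger absolute log2 difference. That last share spans genes of all levels and was not matched to the low read numbers of MYF5. LDPL also lay below the midpoint of L and DPL by 1.35 on the log2 scale (-1.35 ± 0.35, adjusted p = 0.0138), a comparison in which 8.12% of all tested genes were called, 5.13% higher and 2.99% lower. The 2 comparisons share the LDPL and DPL libraries. Both calls held with each library left out in turn and under each alternative run, and the difference from DPL was -1.60 without LDPL replicate 5 (adjusted p = 0.0289) and -1.54 without DPL replicate 21 (adjusted p = 0.032). On the log2(RPKM + 1) scale, which understates changes of low genes, limma gave -0.94 for the same difference. Among the alternative runs, by edgeR, DESeq2 or limma, the highest adjusted p was 0.0475 against DPL and 0.0397 against the midpoint.

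The other MYF5 differences missed the threshold. The log2 difference was 0.81 for DPL against L (95% interval 0.07 to 1.56, adjusted p = 0.0781), -0.94 for LDPL against L (-1.72 to -0.15, adjusted p = 0.0646) and -0.37 for DLDPL against L (-1.13 to 0.40, adjusted p = 0.517). It was -1.18 for DLDPL against DPL (-1.94 to -0.42, adjusted p = 0.0640), where 4.1% of genes were called (1.98% higher and 2.12% lower), and 0.57 for DLDPL against LDPL (-0.22 to 1.36, adjusted p = 0.787). Some of these lie close to the threshold and pass it under other settings: MYF5 was called in LDPL against L by DESeq2 (-0.94, adjusted p = 0.0451) and in DLDPL against DPL by DESeq2 (-1.20, adjusted p = 0.0287) and without DLDPL replicate 28 by edgeR (-1.40, adjusted p = 0.029). In DLDPL against LDPL edgeR called 0 genes of any kind (0%), with 969 at an unadjusted p under 0.05, and DESeq2 called 33.

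**Figure D2:**
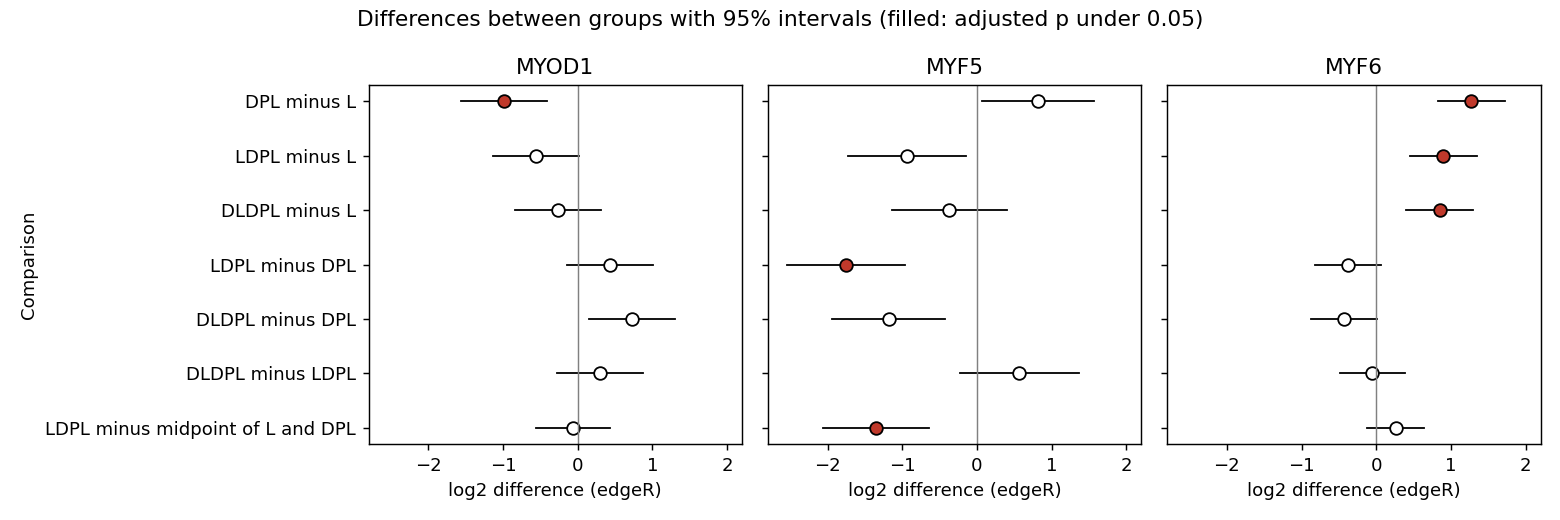
Log2 differences of MYOD1, MYF5 and MYF6 between breed groups (edgeR) with 95% intervals, filled where the adjusted p is under 0.05. MYF6 is filled in the 3 comparisons with L, MYOD1 in DPL minus L at -0.99, and MYF5 in LDPL minus DPL at -1.75 and in LDPL minus the midpoint at -1.35.

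In all, 2 of the 3 factors were called in DPL against L, in opposite directions, where 38% of all tested genes were called. In LDPL and in DLDPL against L 1 of 3 was called, about the share of all genes there (29.6% and 21.9%). In LDPL against DPL and against the midpoint 1 of 3 was called, beside 2.85% and 8.12% of all genes. Between DLDPL and DPL (4.1%), and between the crosses (0%), 0 of 3 were called. The balance of the family in a library followed. The ratio of MYF6 to MYOD1 in RPKM had a median of 7.47 for L, 46.5 for DPL, 29.3 for LDPL and 20.9 for DLDPL, with ranges of 4.26 to 28.1 in L and 11.8 to 97.6 in DPL. The ratio of MYOD1 to MYF5 had medians of 7.14, 1.65, 10.9 and 8.92 in the same order. Its lowest value among DPL libraries was 0.604, in replicate 23. In the other groups its lowest values were 2.65 in L, 2.50 in LDPL and 3.35 in DLDPL.

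The 3 factors varied much between libraries of 1 group. The coefficient of variation of MYOD1 RPKM was 48.1% for L, 62.4% for DPL, 36.1% for LDPL and 39.2% for DLDPL. For MYF5 it was 31.4%, 60.0%, 61.8% and 75.6% in the same order, and for MYF6 33.0%, 61.9%, 18.0% and 21.8%. RPKM is not scaled by TMM, and L replicate 2, with the highest MYOD1, had a TMM factor of 1.44. In TMM-scaled CPM, MYOD1 was at 21.7 ± 7.65 in L and 10.9 ± 6.63 in DPL (SD, n = 8). It was at 14.8 ± 5.53 in LDPL and 18.1 ± 6.73 in DLDPL. The fitted biological coefficient of variation, which leaves out counting error, was 0.391 for MYOD1, 0.498 for MYF5 and 0.304 for MYF6. Of the tested genes nearest to each in mean level, 95.6%, 90.6% and 91.4% had a lower one. A high level of 1 factor was not tied to the others in a way that passed the test. Of 12 correlations of log2 CPM between members within a group (8 libraries each, two-sided exact permutation test), 0 had an adjusted p under 0.05, for Pearson's r or Spearman's rho.

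The lowest p was for MYOD1 with MYF6 in L, where libraries with more MYOD1 had less MYF6. There r was -0.913 (exact permutation p = 0.0058, adjusted 0.0696) and rho was -0.786 (exact permutation p = 0.0279, adjusted 0.335). Without the 2 libraries farthest from the MYOD1 median r was -0.686, and with log2(RPKM + 1) in place of log2 CPM it was -0.485. MYF5 and MYF6, the neighbouring genes, had r = 0.633 in DPL (exact permutation p = 0.0867, adjusted 0.520) and 0.215 in L, 0.430 in LDPL and 0.326 in DLDPL. Without the 2 libraries farthest from the MYF5 median r was 0.810 in DPL, 0.209 in L and 0.0717 in DLDPL. In LDPL it turned to -0.900, and rho over the 8 libraries was 0.0238, so the LDPL value rests on those 2 libraries.

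**Figure D3:**
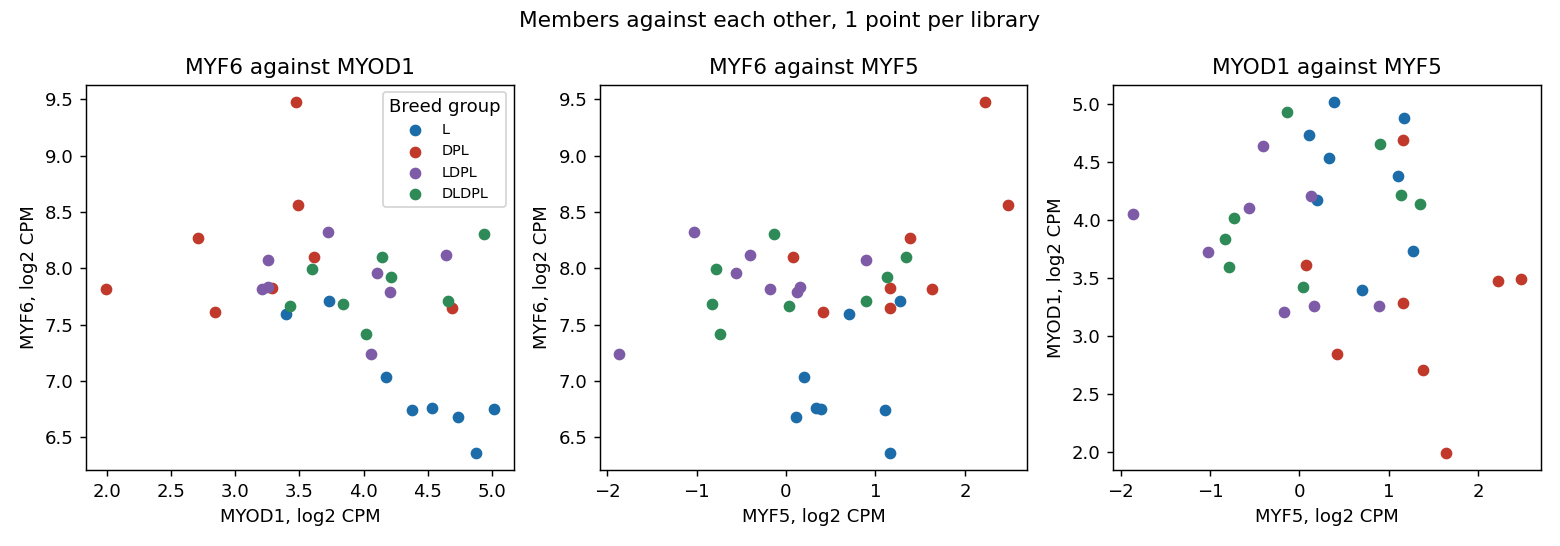
Log2 CPM of the 3 factors plotted against each other, with 1 point per library coloured by breed group. In the plot of MYF6 against MYOD1 the L libraries run from upper left to lower right (r = -0.913 over 8 libraries, adjusted p = 0.0696 by an exact permutation test), and in that of MYF6 against MYF5 DPL replicate 11 lies at the top.

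The genes whose log2 CPM followed each factor most closely over the 32 libraries were ranked by Pearson's r among 7574 genes with a symbol and a mean of at least 1 CPM. These values are a description: the points share libraries and depth, and differences between breeds and within breeds both enter. For MYF6 they were PDK4 (r = 0.846), a kinase that inhibits pyruvate dehydrogenase, TOGARAM2 (0.816), NFIL3 (0.815), a transcriptional repressor, ZNF207 (0.810) and SELENOS (0.809), a selenoprotein of the endoplasmic reticulum. After subtracting the group means PDK4 and TOGARAM2 were still among the first 5, with r = 0.617 and 0.620, behind JAK2 (0.642), a kinase of cytokine receptors, INTS12 (0.631) and OSR2 (0.621).

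For MYOD1 the closest genes were FREM2 (r = 0.742), B3GNT5 (0.700), FGFR4 (0.698), a fibroblast growth factor receptor of myogenic cells, UBTD2 (0.668) and IGF1 (0.667), which encodes insulin-like growth factor 1. After subtracting group means the 4 closest were IL18 (0.704), MUSK (0.676), the receptor kinase that organises the neuromuscular junction, FREM2 (0.674) and LIMD1 (0.651). For MYF5 they were PANK4 (0.666), SLC25A42 (0.627), RXRB (0.599), NDUFV1 (0.584), a subunit of respiratory complex I, and MMS19 (0.575), and after subtracting group means FGD6 (0.644), LARP6 (0.631), RETREG1 (0.630), SPRY1 (0.618), a brake on receptor kinase signalling in satellite cells, and OTUD1 (0.600). None of the 3 factors was among the first 5 of another: r was -0.439 between MYOD1 and MYF6, 0.228 between MYF5 and MYF6 and -0.210 between MYOD1 and MYF5. After subtracting group means r was -0.143, 0.413 and -0.067 in the same order, and MYF6 ranked 125 of 7574 genes by likeness to MYF5, against 1020 before.

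Upstream of the family stand paired box and homeobox factors such as PAX3 and other regulators of muscle precursors. Counts of called genes in the lists that follow stand beside 38% of all tested genes called in DPL against L, 29.6% in LDPL against L and 21.9% in DLDPL against L, and medians beside -0.02, -0.03 and -0.02. Some genes are in several lists, so the counts of different lists are not separate. Examples are CDH15 (target genes and satellite cells), NOTCH3 (satellite cells and smooth muscle) and ACTA1 (target genes and fibre markers). Of 16 upstream genes listed, 10 were matched and 9 tested. In DPL against L 2 were higher and 3 lower (median log2 difference -0.35), and 3 were called without L replicate 1 or L replicate 10, or without the filter on low counts. SIX4, a homeodomain factor that acts on the promoters of the family, fell from 8.86 ± 1.44 RPKM in L to 4.64 ± 1.05 in DPL (log2 difference -0.79 ± 0.14, adjusted p = 5.52e-05). It was also lower than in L in LDPL (-0.85, adjusted p = 4.1e-05) and in DLDPL (-0.76, adjusted p = 0.000234). SIX2 was lower in DPL than in L (-0.97 ± 0.27, adjusted p = 0.00491). MEOX1, a homeobox factor of the somite, was higher in DPL (1.42 ± 0.36, adjusted p = 0.00229), as it was in LDPL (1.16) and DLDPL (1.47). In LDPL and in DLDPL against L 2 were higher and 3 lower in each. PAX3, a paired box factor of muscle progenitors, had 0 reads in 26 of 32 libraries and was not tested, and PAX7 was not matched by symbol.

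Among E-proteins, with which the factors form the dimers that bind DNA, 2 of 3 listed were tested. TCF4 was lower in DPL than in L (-0.46 ± 0.14, adjusted p = 0.00781) and TCF3 was not called (-0.10 ± 0.20, adjusted p = 0.729). Of 24 listed inhibitors of the family or its partners 13 were tested, and 2 were higher and 2 lower in DPL than in L (2 and 5 with upper-quartile scaling), with a median of -0.25. The 4 called of 13 are a share near the 38% of all genes. HDAC5, a class IIa histone deacetylase that represses MEF2, rose from 16.1 ± 2.16 RPKM in L to 26.0 ± 5.08 in DPL (0.88 ± 0.13, adjusted p = 1.99e-06). HDAC4, of the same class, fell from 5.07 ± 1.48 to 2.06 ± 0.591 RPKM (-1.15 ± 0.20, adjusted p = 2.24e-05). ID2, which takes E-proteins away from the myogenic factors, was higher in DPL (0.85 ± 0.23, adjusted p = 0.00362). HDAC7 was lower (-0.64 ± 0.23, adjusted p = 0.0238), a call lost without L replicate 1 or DPL replicate 11, 23 or 26. LDPL against L had 2 higher and 3 lower, and DLDPL against L 2 and 2.

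Of 20 listed cofactors 18 were tested, and 3 were higher and 5 lower in DPL than in L, with a median of -0.07, a share near the 38% of all genes. Without L replicate 7 or L replicate 8 the calls were 2 and 3. PRMT5, an arginine methyltransferase that works with MYOD1 at muscle genes, rose from 12.6 ± 3.43 to 21.6 ± 5.39 RPKM (0.95 ± 0.11, adjusted p = 2.46e-08). SMARCD3, the subunit that links MYOD1 to the SWI/SNF remodelling complex, fell from 58.5 ± 6.59 to 33.8 ± 2.83 RPKM (-0.64 ± 0.10, adjusted p = 1.1e-05). SRF, serum response factor, was lower (-0.55 ± 0.14, adjusted p = 0.00169). SMARCA4, the ATPase of that complex, was higher by edgeR (0.35 ± 0.10, adjusted p = 0.00553) but not called by limma. LDPL against L had 2 higher and 6 lower, and 2 and 3 without L replicate 1, 7, 8 or 10 or LDPL replicate 14 or 15. DLDPL against L had 2 of each, a share near the 21.9% of all genes.

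Target genes of the factors, which the family switches on in forming or adult muscle, were lower in Dapulian more often than higher. Of 30 listed, 16 were tested, and in DPL against L 3 were higher and 9 lower, with a median of -0.63. In LDPL against L 1 was higher and 8 lower, and in DLDPL against L 1 and 4. With each library left out in turn 5 to 7 were lower in LDPL and 3 to 5 in DLDPL. Under the other alternative runs 3 to 11 were called in LDPL against L in either direction. CDH15, M-cadherin of satellite cells and myoblasts, fell from 15.1 ± 2.94 to 6.74 ± 1.69 RPKM in DPL (-0.99 ± 0.17, adjusted p = 2.59e-05). MYMK, the myomaker protein that fuses myoblasts, fell from 3.58 ± 1.35 to 1.14 ± 0.559 RPKM (-1.47 ± 0.28, adjusted p = 0.000108), and was higher in DLDPL than in DPL (1.38 ± 0.28, adjusted p = 0.00416). MUSK went the other way, from 1.08 ± 1.01 to 2.77 ± 2.03 RPKM (1.60 ± 0.42, adjusted p = 0.00298). MYH8, the perinatal myosin heavy chain, was lower in DPL (-1.32 ± 0.25, adjusted p = 9.61e-05), but its reads can be split with near-identical myosin genes and the value is uncertain.

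For some target genes 1 library set much of the size of the difference. The genes in this paragraph other than TNNT2, like MUSK above, were chosen after their values were seen. TNNT2, a troponin of heart and immature muscle, was at 80.7 RPKM in the highest L library and at most 1.66 in DPL. Its log2 difference of DPL from L was -3.18 (adjusted p = 0.000204) and -1.13 without L replicate 2 (adjusted p = 0.00557). MYH3, the embryonic myosin heavy chain, went from -2.65 to -1.44 in the same way (adjusted p = 0.0378). CHRNA1, a subunit of the muscle acetylcholine receptor, went from -1.66 to -0.75 and was no longer called (adjusted p = 0.149). L replicate 2 is also the library with the highest MYOD1. Without it 3 target genes were higher and 8 lower in DPL than in L.

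Most satellite cell markers tested were lower in DPL than in L, as MYOD1 was. MYF5, which also marks these cells, was not lower there (log2 difference 0.81, adjusted p = 0.0781). PAX7 is missing from the markers tested. Of 18 listed, 12 were matched and 10 tested, and 0 were higher and 7 lower in DPL than in L, with a median log2 difference of -0.92. The counts were 0 and 5 in LDPL and 0 and 5 in DLDPL, with medians of -0.73 and -0.52. FGFR4 fell from 2.92 ± 1.20 RPKM in L to 0.939 ± 0.226 in DPL (-1.44 ± 0.19, adjusted p = 6.65e-07), and it was higher in DLDPL than in DPL (0.76, adjusted p = 0.0206). NOTCH3, a Notch receptor that smooth muscle also expresses, fell from 6.34 ± 1.59 to 2.64 ± 0.641 RPKM (-1.09 ± 0.18, adjusted p = 2.03e-05). MET, the receptor of hepatocyte growth factor, fell from 6.15 ± 1.74 to 2.97 ± 1.01 RPKM (-0.89 ± 0.19, adjusted p = 0.000426). CDH15, VCAM1, SDC3 and NCAM1 were lower as well, CALCR missed the threshold (-0.87, adjusted p = 0.0509), and SPRY1 and FGFR1 were at 0.23 and 0.16. The summed level of the 10 genes was 151 to 249 CPM for L, 102 to 165 for DPL, 110 to 160 for LDPL and 109 to 166 for DLDPL. In LDPL against DPL, the pair in which MYF5 was called, 0 of the 10 were called, with a median of 0.20. Of all tested genes 2.85% were called there, so 0 of 10 is near that share.

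**Figure D4:**
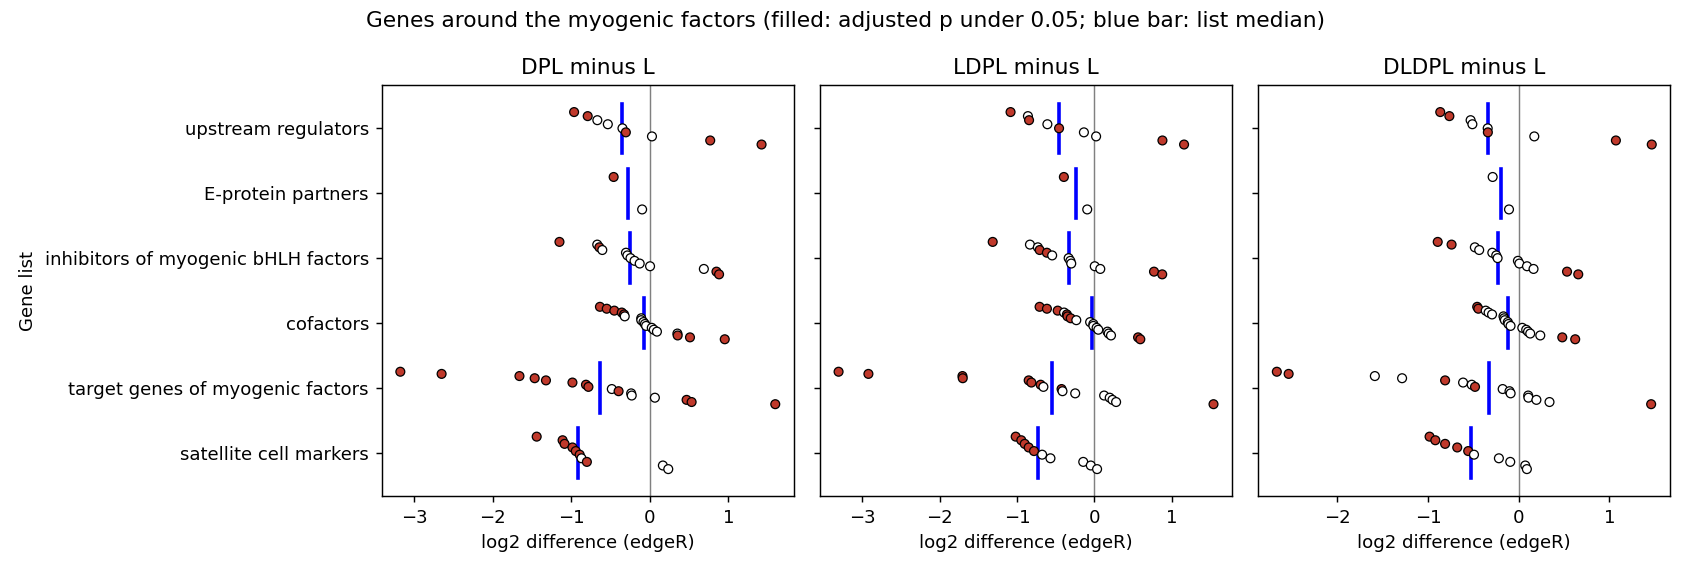
Log2 differences from L (edgeR) of the tested genes in 6 lists around the myogenic factors, filled where the adjusted p is under 0.05, with a bar at each list's median. The satellite cell markers have their medians at -0.92 in DPL, -0.73 in LDPL and -0.52 in DLDPL, while the cofactors have theirs at -0.07, -0.03 and -0.12.

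Most fibroblast markers tested were also lower in DPL than in L. Of 8 listed, 5 were tested, and 4 were lower in DPL than in L, 3 in LDPL and 0 in DLDPL. The count in LDPL was 1 without L replicate 2 or 5 or LDPL replicate 4, 8 or 9. COL3A1, a fibrillar collagen, fell from 232 ± 77.2 RPKM in L to 45.4 ± 23.0 in DPL (-2.16 ± 0.30, adjusted p = 8.16e-07). The summed level of the 5 genes was 1273 to 2254 CPM for L, 333 to 1314 for DPL, 531 to 1576 for LDPL and 929 to 2082 for DLDPL. The fast fibre genes had 0 higher and 5 lower of 6 tested in DPL against L, and the slow fibre genes 3 higher and 0 lower of 5 (1 and 0 in a fit to these groups alone, or without DPL replicate 16 or 23). The part of these cell and fibre markers in the MYOD1 and MYF6 differences was not tested. Of the other marker lists, endothelial cells had 0 higher and 1 lower of 5 tested in DPL against L (0 and 2 without DPL replicate 21), smooth muscle 2 and 3 of 6, adipocytes 1 and 1 of 4 (1 and 0 without L replicate 4, 5 or 7 or DPL replicate 11, 19 or 23), lymphocytes 0 and 3 of 4 (0 and 1 without L replicate 2), and macrophages (5 tested), blood (2) and nerve (2) none in either direction. Without L replicate 2 macrophages had 2 higher. Clock genes, which keep daily rhythms and which MYOD1 acts on in muscle, had 5 higher and 2 lower of 10.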

How the data were processed

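RNA of longissimus dorsi was sequenced in 32 libraries, 8 per breed group, prepared with the NEB Next Ultra kit per the labels. The authors deposited, per gene and library, raw read counts, RPKM (counts scaled for listed length and library total) and the percent of gene length covered. RPKM recomputed from the counts differed from the deposited RPKM by at most 2.2e-14 in relative terms. Genes not listed in a library were given 0. Bowtie 0.12.2, Cufflinks and the mouse build mm8 are named in the submitters' processing notes, while the identifiers are those of pig genes. No coordinates are printed, since the pig build is not given in the sources used here. Symbols came from a table of gene names and covered 60.4% of identifiers.

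Counts were filtered with filterByExpr (minimum count 10, minimum total 15), which kept 12821 genes with 99.97% of reads, scaled by TMM and fitted with edgeR 4.0.16 (glmQLFit, glmQLFTest) as 1 model of 4 groups over 32 libraries. The 6 pairs and LDPL against the midpoint of L and DPL were tested. The SE is the log2 difference divided by the square root of F. Alternatives used RLE and upper-quartile scaling, no mitochondrial genes, no filter, DESeq2 1.42.0, limma 3.58.1 on log2(RPKM + 1) or log2(RPKM + 0.1), the compared groups alone, a replicate block, and each library left out. The script was tested on simulated data. The 3 genes, the gene lists and the rule for naming list genes were chosen with earlier results of these data known. That rule takes up to 4 tested genes per list with the smallest adjusted p in DPL against L, the 5 genes closest to each factor by correlation, and list genes of the same role where a sentence turns on one. Other list genes named (PAX3, MUSK, MYH3, CHRNA1, VCAM1, SDC3, NCAM1, CALCR, SPRY1, FGFR1) were chosen after their values were seen. Some genes that the rule or lists include are not reported here. The labels give 32 pigs, 8 per group, but do not tie each library to an animal. If libraries shared an animal, the spread behind the p-values would be partly technical.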

Additional observations from a re-analysis of the deposited data

Results flagged for a closer look

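Of the 12 sets of 8 RPKM values (3 genes in 4 groups), 2 held a library whose gap to the next was above the critical value used. For normally distributed values chance alone gives about 1 such set in 20. The gaps were taken on RPKM without a log, where values need not be normal, so that rate may not hold here. MYF6 was at 551 RPKM in DPL replicate 11, and its gap to the next DPL library was 0.663 of the whole DPL range, above the critical value of 0.526. The same library had the second highest MYF5 of its group, at 4.99 RPKM. MYOD1 was at 12.2 RPKM in DPL replicate 7, with a gap of 0.609 of the range, while MYF6 there was at 143 RPKM and MYF5 at 2.17.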

How the results depend on the processing

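The MYF6 calls against L in 3 groups, the MYOD1 call in DPL against L and the MYF5 calls in LDPL against DPL and the midpoint held in every alternative run. Leaving out each library gave 0.99 to 1.41, 0.83 to 1.03 and 0.78 to 0.98 for MYF6 in DPL, LDPL and DLDPL, -1.30 to -0.86 for MYOD1, and -2.02 to -1.54 and -1.62 to -1.20 for MYF5. Fits to the compared groups alone called MYF5 in DPL against L (0.82, adjusted p = 0.046, edgeR) and LDPL against L (-0.94, 0.0328), counted 178 genes in LDPL against DPL (366 in the report's fit) and 252 in DLDPL against DPL. MYF5 in LDPL against L was also called with upper-quartile scaling (-1.01, adjusted p = 0.0458), DESeq2 (-0.94, 0.0451) and limma on log2(RPKM + 0.1) (-1.05, 0.0353), and in DLDPL against DPL by DESeq2 (-1.20, 0.0287). DESeq2 counted 617, 802 and 33 genes in LDPL against DPL, DLDPL against DPL and DLDPL against LDPL. Limma on log2(RPKM + 1) counted 184 genes in LDPL against DPL (159 without filter), 341 in DLDPL against DPL without filter, 1 in DLDPL against LDPL without filter, where unfiltered edgeR counted 2, and 612 against the midpoint (594 with 0.1 added, 489 without filter, 1041 by edgeR). With 0.1 added MYOD1 against the midpoint was 0.0161. Leaving out each library gave 0.60 to 0.94 for MYF5 in DPL against L (called without DPL replicate 19 or 30), -1.21 to -0.79 in LDPL against L (called without LDPL replicate 9) and -1.40 to -0.97 in DLDPL against DPL (called without DPL replicate 19 or 30 or DLDPL replicate 28), 0.58 to 1.04 for MYOD1 in DLDPL against DPL, -0.13 to 0.0185 for MYF6 in DLDPL against LDPL and -0.21 to 0.0942 for MYOD1 against the midpoint. Counts of genes were 151 to 442 in LDPL against DPL, lowest without LDPL replicate 5 (174 without LDPL replicate 10, 234 without LDPL replicate 14), 312 to 692 in DLDPL against DPL (312, 347 and 345 without DLDPL replicate 6, DPL replicate 11 and DLDPL replicate 29), 0 to 3 in DLDPL against LDPL and 626 to 1141 against the midpoint (626 without LDPL replicate 15). The cause of these shifts was not tested.

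Upper-quartile scaling, the other steps kept, moved the balance of calls but no called member's direction. In DPL against L 2455 genes higher and 2418 lower became 1955 and 3110 (median of all genes -0.10), in LDPL against L 1905 and 1888 became 1543 and 2424, in DLDPL against L 1488 and 1317 became 1264 and 1639, and in DLDPL against DPL 254 and 272 became 305 and 200. Limma on log2(RPKM + 1) changes test, transform and scaling together. It gave 1277 and 3412 (median -0.12), 1214 and 2058, and 1008 and 1237 (911 and 1244 without filter) in the 3 comparisons with L, 397 and 53 in DLDPL against DPL, and 133 and 51 in LDPL against DPL, where edgeR gave 166 and 200. By rank correlation 3, 2 and 2 of the 5 genes closest to MYOD1, MYF5 and MYF6 were the same, and r of MYOD1 with MYF5 in DPL went from -0.060 to 0.0822 with log2(RPKM + 1). L and LDPL share the numbers 4, 5, 8, 9 and 10. The deviations of same-numbered libraries from their group means correlated at -0.101 to 0.067, and none matched its own number best. These correlations run over all genes and cannot exclude a weaker link, and the sample titles do not say what the numbers stand for. On the libraries with shared numbers 1813 genes were called in LDPL against L with the replicate block and 2176 without. MYF6 was 0.91 with the block (adjusted p = 0.0246) and 0.88 without, and MYOD1 and MYF5 were not called in either. For the list genes, the same alternatives were applied after seeing the data. MYF5 has the fewest reads, so its values carry the largest counting error of the 3.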
